A study of Mus musculus with 11 samples.

Results

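The nuclear genes for complex III, cytochrome c, complex IV and ATP synthase were followed in mouse hearts as the part of the respiratory chain that runs from ubiquinol to ATP. Members were the protein-coding genes with a symbol that starts with Uqcr, Cox4i, Cox5, Cox6, Cox7, Cox8 or Atp5, or that is Cyc1 or Cycs, in GENCODE M21 on GRCm38. The rule found 46 of 55487 identifiers in the count table, 9 for complex III, 1 for cytochrome c, 18 for complex IV and 18 for ATP synthase. They carried 45 symbols, because Atp5o had 2 identifiers. A total of 43 passed the filter on low counts. The other 3 were Cox8c with 0 counts in all libraries, Cox7b2 with 15 counts, and the second Atp5o identifier (ENSMUSG00000116933) with 9 counts, a locus that also runs across Donson and Cryzl1. In the annotation 14 members overlap a gene on the other strand and 7 one on their own strand, and the sources used here do not state whether counting used the strand, so reads of such neighbours could not be told apart.

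The hearts came from female C57BL/6NTac mice, an inbred strain, and RNA was sequenced in 3 groups. Treated obese mice (3 libraries) were given an obesogenic diet for 24 weeks from 8 weeks of age, and from week 16 were gavaged with a cocktail in 10% PEG400, made of quercetin (50 mg/kg) and dasatinib (5 mg/kg). Gavage was on 3 days in a row each week up to week 24. Obese mice (4 libraries) had the same diet and PEG400 alone, and control-diet mice (4 libraries) had a diet with 10.4% of energy from fat over the same 24 weeks. The obesogenic diet joined a feed with 60.3% of energy from fat and sweetened condensed milk. Quercetin, a flavonoid of plants, and dasatinib, which inhibits tyrosine kinases, are combined as a senolytic, meant to remove senescent cells. The sources used here do not tell whether mice on the control diet were gavaged as well, so diet and gavage cannot be told apart in comparisons with them. No label states that the libraries came from separate animals, so the p-values given here cover only the variation between these libraries, part of which may be technical.

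Complex III passes electrons from ubiquinol to cytochrome c and pumps protons across the inner mitochondrial membrane. Complex IV, cytochrome c oxidase, hands these electrons to oxygen, and ATP synthase (complex V) lets the protons flow back and makes ATP. Heart muscle depends on this chain for nearly all of its ATP. Several complex IV subunits exist in a heart and muscle form and a ubiquitous form, encoded by separate genes, and the catalytic core of complex IV, cytochrome b and parts of the ATP synthase membrane sector are encoded by the mitochondrial chromosome. Respiratory genes are known targets of NRF1, of the ETS factor GABP (NRF2), of estrogen-related receptors (ERR) and of YY1.

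Because the members were lower together in what follows, their start sites were searched for 4 short motifs of these factors, on both strands. RefSeq promoters of GRCm38.p6, each with 250 bases before and 50 after the start, were found for 34 of the 45 symbols. The NRF1 motif, the 10 bases in capitals in the Atp5g2 and Atp5k sequences that follow, reads the same on both strands. It was present in 4 of 34 member promoters (Atp5g2, Atp5k, Cox6a1 and Uqcrc1) and in 0.977% of 27025 promoters. The ETS motif CCGGAAGT was present in 4 (Atp5h, Cox8a, Uqcr11 and Uqcrh) and in 4.0% of all promoters. The ERR motif TCAAGGTCA occurred in 1 (Atp5g3; 0.407% of all) and the YY1 motif AAGATGGCG in 1 (Atp5j2; 1.49% of all). No member promoter held more than 1 of the 4 motifs. A match describes the letters only. Shown here are the 250 bases before the start of 4 members, written 5′ to 3′ on the gene's strand with the motif in capitals. They are the NRF1 holders with the largest and one of the smaller differences with the diet, the ETS holder with the largest difference and the ERR holder. Atp5g2 is chr15:102671048-102671297, Atp5k chr5:108434400-108434649, Uqcrh chr4:116075071-116075320 and Atp5g3 chr2:73911327-73911576, all on the minus strand. The motif's first base is at -42, -50, -11 and -52 from the start site in that order, and in Uqcrh and Atp5g3 the letters are the reverse complement.
Atp5g2: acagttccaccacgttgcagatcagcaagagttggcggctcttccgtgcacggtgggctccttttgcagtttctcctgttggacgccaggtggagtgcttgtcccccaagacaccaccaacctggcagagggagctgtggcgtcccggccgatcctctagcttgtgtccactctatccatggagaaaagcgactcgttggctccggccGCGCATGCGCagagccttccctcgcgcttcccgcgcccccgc
Atp5k: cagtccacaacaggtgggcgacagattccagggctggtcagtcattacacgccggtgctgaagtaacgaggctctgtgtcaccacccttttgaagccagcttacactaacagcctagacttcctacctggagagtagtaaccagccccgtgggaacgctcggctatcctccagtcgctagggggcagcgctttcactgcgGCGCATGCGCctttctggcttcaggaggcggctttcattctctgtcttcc
Uqcrh: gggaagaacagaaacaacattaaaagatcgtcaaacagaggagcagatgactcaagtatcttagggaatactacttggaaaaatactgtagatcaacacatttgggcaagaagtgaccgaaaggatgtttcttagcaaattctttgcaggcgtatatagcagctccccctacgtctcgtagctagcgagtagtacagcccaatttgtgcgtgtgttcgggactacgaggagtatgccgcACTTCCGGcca
Atp5g3: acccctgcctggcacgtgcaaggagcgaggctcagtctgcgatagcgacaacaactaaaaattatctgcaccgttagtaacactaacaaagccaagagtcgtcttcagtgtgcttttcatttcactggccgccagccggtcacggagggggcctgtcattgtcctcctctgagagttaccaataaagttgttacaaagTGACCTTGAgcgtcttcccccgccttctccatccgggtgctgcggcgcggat

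The log2 fold changes of obese over control-diet hearts differed among the NRF1 holders. They were -1.23 for Atp5g2, -0.58 for Cox6a1, -0.40 for Atp5k and -0.38 for Uqcrc1, of which the first pair passed the test. The ETS holders were at -0.96 for Uqcrh, -0.70 for Atp5h, -0.68 for Cox8a and -0.26 for Uqcr11, and all but Uqcr11 passed. Atp5g3 stood at -0.62 and Atp5j2 at -0.98, and both passed.

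The 11 libraries held 64199080 to 72282073 counts in treated obese hearts, 52736860 to 67247567 in obese hearts and 73097532 to 103293081 in control-diet hearts. Genes of the mitochondrial chromosome took 17.8 to 22.4% of the counts in treated obese, 21.4 to 24.5% in obese and 28.2 to 32.3% in control-diet hearts. Loci annotated as TEC (awaiting experimental evidence) or sense-intronic, here the intronic share, took 0.509 to 0.671% in treated obese, 0.663 to 0.811% in obese and 0.286 to 0.590% in control-diet hearts. All 8 ventricular cardiomyocyte markers were present, at a summed 29156 to 34141 CPM in treated obese, 22868 to 34251 CPM in obese and 28678 to 40379 CPM in control-diet hearts. Atrial markers summed to 47.2 to 5633 CPM in treated obese, 17.2 to 2116 CPM in obese and 32.6 to 97.9 CPM in control-diet hearts, with the high values in obese replicate 3 and treated replicates 2 and 3. Skeletal muscle markers summed to at most 2.28 CPM in any library, with Myh4 at 0.

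Levels are in CPM, each library's counts scaled to a common total, with TMM-scaled library sizes, and levels of different genes are compared only per kilobase of annotated exon. Over all 11 libraries Cox6a2, the heart and muscle form of subunit 6A, was highest at 854 CPM per kilobase. Atp5a1 and Atp5b, the alpha and beta subunits of the ATP synthase head, followed at 526 and 410, then Cox6b1 at 292 and Cox8b at 235. Among tested members the lowest were Cox6b2, a form of subunit 6B known from testis, at 1.003 CPM per kilobase, Atp5s (factor B, an ATP synthase coupling factor) at 4.27 and Cox4i2 at 4.79. Subunit c of ATP synthase is made by 3 genes with the same mature protein, and per kilobase Atp5g3 stood at 166, Atp5g1 at 64.8 and Atp5g2 at 21.1. Exon length here is the union of all annotated exons, so genes with long rare exons come out low on this scale.

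**Figure D1:**
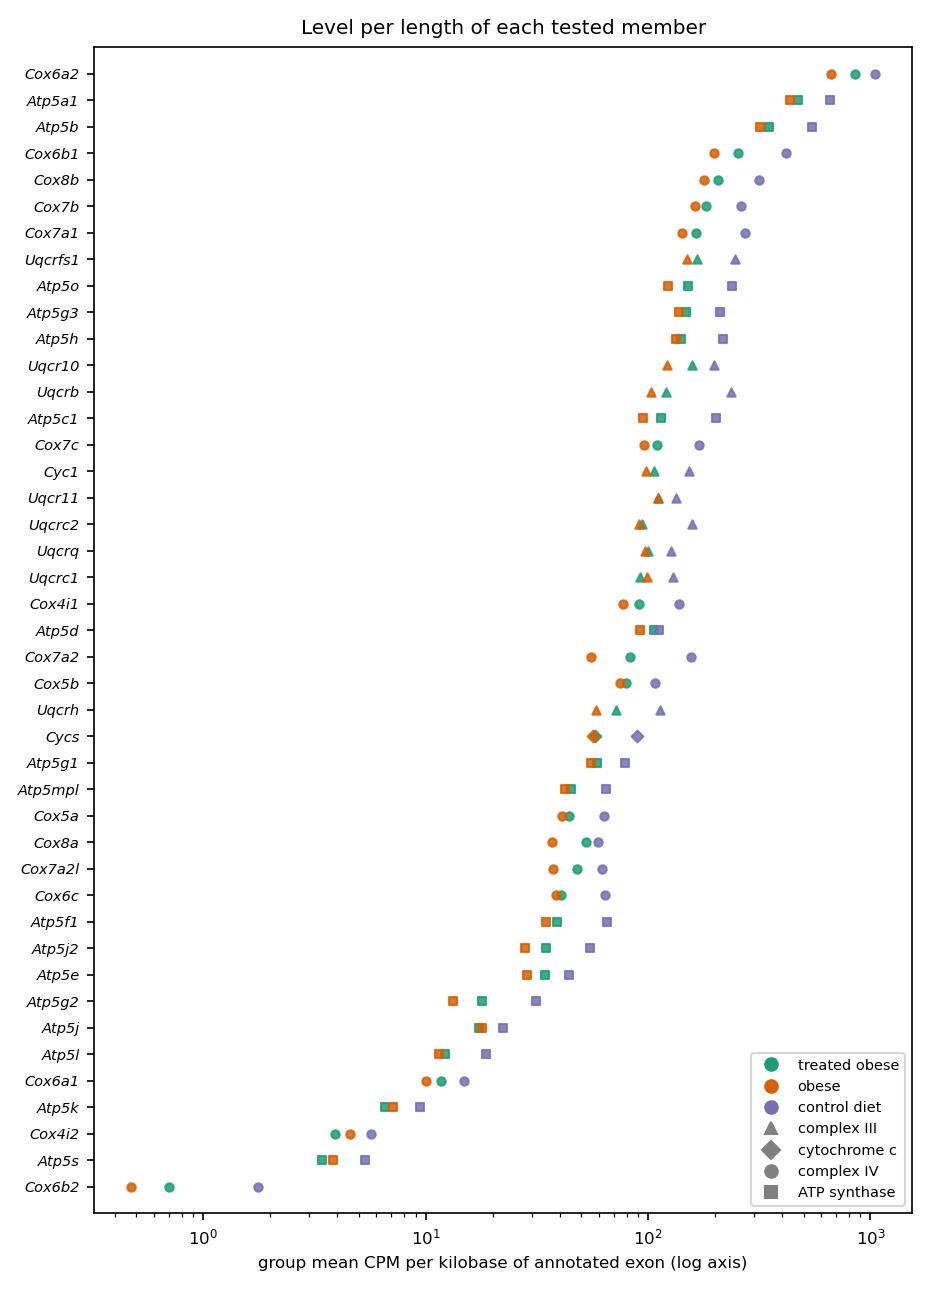
Level of each of the 43 tested members per length: group mean CPM per kilobase of annotated exon (log axis), with colours for treated obese (3 libraries), obese (4) and control diet (4) and marker shapes for the complex. Cox6a2 is at the top at 854 CPM per kilobase over all libraries and Cox6b2 at the bottom at 1.003, and the control-diet mark is the rightmost in every row.

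Obese hearts were set against control-diet hearts to see how the members differed with the diet. With TMM scaling every one of the 43 tested members had a lower fitted level in obese hearts, and 36 of them fell past the test (edgeR adjusted p under 0.05), with none higher. Over all 23779 genes tested, 15.7% were called lower and 14.4% higher, and 43.2% had a log2 fold change below 0. The members' median log2 fold change was -0.70, against 0.11 over all genes, and single members ran from -1.89 (Cox6b2) to -0.26 (Uqcr11). In 18 members all 4 obese libraries lay below all 4 control-diet libraries, which was so for 14.7% of all genes. By complex, 6 of 9 complex III members fell (median -0.70), cytochrome c fell (-0.66), 15 of 16 complex IV members fell (-0.73) and 14 of 17 ATP synthase members fell (-0.63). In bulk heart RNA, fewer cells of a type and less RNA per cell cannot be told apart.

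Depth, composition and RNA measures moved with this comparison, and their part in it was not tested. Library totals and the mitochondrial share were lower, and the intronic share higher, in every obese than in every control-diet library. Because the intronic share did not overlap between these groups, a fit that holds it as a covariate cannot tell it apart from the diet. With the intronic share as a covariate, 0 of 43 members were called, the members' median was 0.03, and over all genes 86 were called lower and 35 higher, where the fit without it called 3737 lower and 3429 higher. Scaled by library totals alone, 18 members were called lower, where 960 of 23779 genes were called lower and 9061 higher. On that scale 36 of 43 members were below 0, their median was -0.27 and that of all genes 0.53, so that most genes stood higher in obese hearts on that scale.

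**Figure D2:**
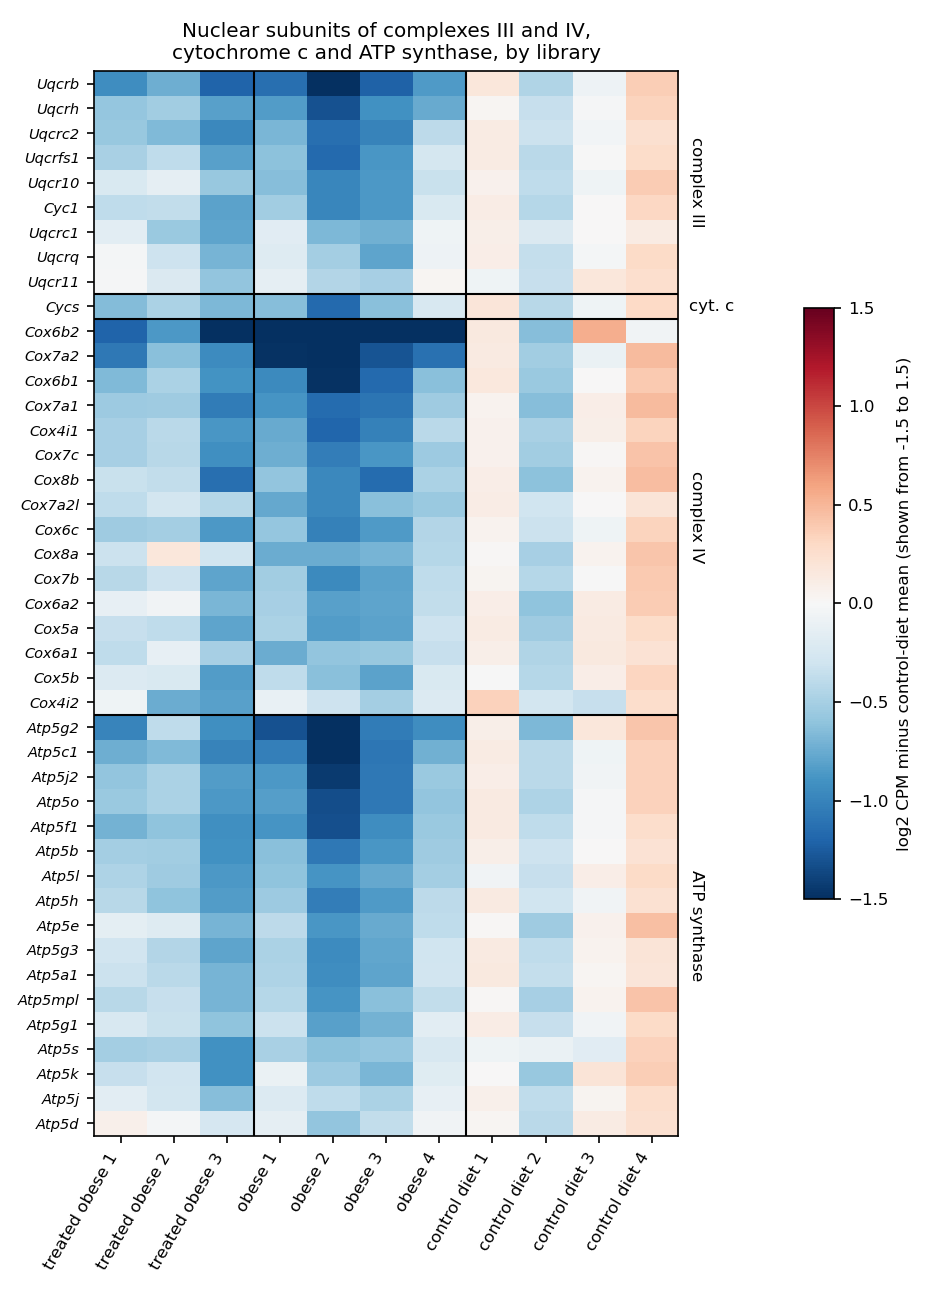
Each tested member (rows, grouped by complex, cyt. c for cytochrome c) in each library (columns, treated obese, obese, control diet), as log2 CPM minus the member's control-diet mean, with the colour scale cut at -1.5 and 1.5. The obese columns have medians from -0.97 to -0.38 and the treated columns from -0.81 to -0.41, and control replicate 2 is blue for all 43 members.

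In complex III the smallest p-values were those of Uqcrb, Uqcrh and Uqcrc2. Uqcrb, a small subunit beside the ubiquinone site (GRCm38 chr13:66900617-66905378, minus strand), had 106, 122 and 88.1 CPM in treated obese hearts, 92.9, 66.4, 87.5 and 113 CPM in obese hearts and 227, 148, 192 and 262 CPM in control-diet hearts, each in the order of replicates. The obese and control-diet values did not overlap, and the level was 2.31-fold lower in obese hearts (edgeR log2 fold change -1.21 with an SE of 0.19, adjusted p = 0.000887). Uqcrh, the acidic hinge protein at the cytochrome c1 docking side, had 92.2, 96.2 and 78.4 CPM in treated obese hearts, 77.0, 55.7, 73.5 and 81.8 CPM in obese hearts and 141, 108, 136 and 174 CPM in control-diet hearts. It was 1.94-fold lower in obese hearts, again with no overlap (edgeR log2 fold change -0.96 with an SE of 0.15, adjusted p = 0.000968). Uqcrc2, a large core protein on the matrix side (chr7:120635176-120659524, plus strand), had 267, 251 and 202 CPM in treated obese hearts, 247, 181, 198 and 302 CPM in obese hearts and 432, 317, 384 and 467 CPM in control-diet hearts. All obese values were below the control-diet ones, and the closest were obese replicate 4 and control replicate 2 (edgeR log2 fold change -0.79 with an SE of 0.18, adjusted p = 0.00571). Of the redox carriers, Uqcrfs1 (the Rieske iron-sulfur protein) fell 1.64-fold and Cyc1 (cytochrome c1) fell 1.56-fold, with overlapping groups (edgeR adjusted p = 0.0156 and 0.022). The call of Cyc1 ended without control replicate 1 or 4 or obese replicate 2 or 3. Uqcr10, another small subunit, had 96.4, 102.9 and 76.5 CPM in treated obese hearts, 73.0, 57.5, 62.6 and 90.1 CPM in obese hearts and 118, 86.7, 108 and 148 CPM in control-diet hearts. Obese replicate 4 reached above control replicate 2, and the fall of 1.63-fold passed the test (edgeR adjusted p = 0.0099).

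The 3 complex III members that did not pass were Uqcrc1, Uqcrq and Uqcr11. Uqcrc1, the partner core protein of Uqcrc2, had 477, 361 and 308 CPM in treated obese hearts, 473, 333, 322 and 506 CPM in obese hearts and 563, 456, 533 and 579 CPM in control-diet hearts. Obese replicates 1 and 4 stood within the control range, and the log2 fold change was -0.38 with an approximate 95% interval of -0.74 to -0.03 (edgeR adjusted p = 0.12). Uqcrq, a small membrane subunit, had 224, 185 and 141 CPM in treated obese hearts, 199.996, 161, 132 and 218 CPM in obese hearts and 246, 179, 224 and 279.8 CPM in control-diet hearts. Obese replicates 1 and 4 again lay within the control range, with an interval of -0.75 to -0.01 (edgeR adjusted p = 0.137). Uqcr11, a small subunit with the fold change nearest 0, had 83.5, 72.7 and 55.9 CPM in treated obese hearts, 76.4, 62.1, 59.9 and 85.8 CPM in obese hearts and 80.6, 66.0, 94.4 and 100.3 CPM in control-diet hearts. Its interval was -0.59 to 0.06 (edgeR adjusted p = 0.238). The intervals use normal limits and are narrow, and the unadjusted edgeR p of all 3 genes was 0.05 or over. Without obese replicate 4 Uqcrc1 passed (edgeR adjusted p = 0.0480), and without control replicate 2 Uqcrq passed (0.0474). Cycs, the mobile carrier between complexes III and IV, averaged 196 ± 14.8 CPM in treated obese hearts (SD, n = 3), 192 ± 48.5 CPM in obese hearts and 303 ± 63.4 CPM in control-diet hearts (SD, n = 4 each). It fell 1.58-fold with overlapping groups (edgeR adjusted p = 0.0194), a call that ended without control replicate 1 or 4.

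In complex IV, Cox7a2, the ubiquitous form of subunit 7A (chr9:79755361-79759878, minus strand), had the smallest p of all members. It had 67.6, 92.4 and 74.2 CPM in treated obese hearts, 50.9, 35.0, 58.3 and 65.7 CPM in obese hearts and 157, 99.2, 133 and 199 CPM in control-diet hearts. All obese values were below all control-diet values, and the level was 2.8-fold lower (edgeR log2 fold change -1.49 with an SE of 0.22, adjusted p = 0.000733). Cox6b2 had 0.813, 1.03 and 0.487 CPM in treated obese hearts, 0.514, 0.566, 0.543 and 0.481 CPM in obese hearts and 2.07, 1.20, 2.73 and 1.79 CPM in control-diet hearts. Its 4 obese values lay close together and below every control-diet value, 3.7-fold lower (edgeR log2 fold change -1.89 with an SE of 0.30, adjusted p = 0.000809), at a mean of 1.11 CPM, the lowest of the tested members. Cox7a2l, a relative of subunit 7A (chr17:83501918-83517330, minus strand), had 69.8, 75.1 and 67.7 CPM in treated obese hearts, 53.3, 46.4, 58.6 and 61.8 CPM in obese hearts and 97.7, 73.5, 90.9 and 104 CPM in control-diet hearts. Obese and control-diet values did not overlap, and it fell 1.66-fold (edgeR log2 fold change -0.73 with an SE of 0.12, adjusted p = 0.00123).

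The muscle forms and their ubiquitous counterparts were all lower in obese hearts. Cox6a2 had 632, 668 and 429 CPM in treated obese hearts, 491, 393, 398 and 533 CPM in obese hearts and 737, 455, 753 and 900.5 CPM in control-diet hearts. Control replicate 2 lay inside the obese range, and the fall was 1.57-fold (edgeR log2 fold change -0.65 with an SE of 0.21, adjusted p = 0.0305). Cox6a1, the ubiquitous form, had 7.90, 9.44 and 7.27 CPM in treated obese hearts, 6.15, 6.82, 6.97 and 8.13 CPM in obese hearts and 10.9, 7.56, 11.4 and 11.95 CPM in control-diet hearts. It fell 1.49-fold with the same library overlapping (edgeR adjusted p = 0.0152). Cox7a1, the muscle form of subunit 7A, had 96.9, 97.9 and 68.1 CPM in treated obese hearts, 76.5, 63.8, 66.0 and 97.4 CPM in obese hearts and 147, 91.0, 152 and 197 CPM in control-diet hearts. It fell 1.93-fold (edgeR adjusted p = 0.00628), with obese replicate 4 above control replicate 2. Cox8b, the muscle form of subunit 8, had 87.0, 84.6 and 50.0 CPM in treated obese hearts, 73.0, 56.1, 49.1 and 78.6 CPM in obese hearts and 117, 71.8, 114 and 151 CPM in control-diet hearts. It fell 1.77-fold (edgeR adjusted p = 0.0216), with obese replicates 1 and 4 above control replicate 2. Cox8a, its ubiquitous counterpart (chr19:7215153-7217616, minus strand), had 28.6, 40.2 and 29.2 CPM in treated obese hearts, 21.5, 21.3, 22.1 and 26.6 CPM in obese hearts and 36.3, 25.4, 37.2 and 48.0 CPM in control-diet hearts. Obese replicate 4 passed control replicate 2, and the fall was 1.61-fold (edgeR adjusted p = 0.0105). The call of Cox6a2 ended without control replicate 4 (edgeR adjusted p = 0.0957), and also without control replicate 1 or 3 or obese replicate 1, 2 or 3. The call of Cox8b ended without control replicate 4 (0.0668) and without obese replicate 2 or 3.

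Cox4i1, the common form of subunit 4, a regulatory subunit, had 148, 158 and 115 CPM in treated obese hearts, 124, 91.9, 104 and 159 CPM in obese hearts and 219, 149.6, 224 and 265 CPM in control-diet hearts. Obese replicate 4 was above control replicate 2, and the fall was 1.79-fold (edgeR log2 fold change -0.84 with an SE of 0.20, adjusted p = 0.00716). Cox4i2, the form of subunit 4 known for its response to oxygen and its expression in lung, was the complex IV member that did not pass. It had 4.17, 2.61 and 2.49 CPM in treated obese hearts, 4.04, 3.51, 3.05 and 3.79 CPM in obese hearts and 5.56, 3.61, 3.44 and 5.23 CPM in control-diet hearts, with 3 of 4 obese values inside the control range and an interval of -0.73 to 0.11 for the log2 fold change (edgeR adjusted p = 0.287). Cox6b1, which sits at the contact of the complex IV dimer, had 180.2, 205 and 153 CPM in treated obese hearts, 147, 102, 128 and 185 CPM in obese hearts and 318, 194, 288 and 375 CPM in control-diet hearts. No obese value reached the control-diet range, and it fell 2.09-fold (edgeR log2 fold change -1.06 with an SE of 0.21, adjusted p = 0.00288). The remaining complex IV members, Cox5a, Cox5b, Cox6c, Cox7b and Cox7c, fell by log2 fold changes of -0.82 (Cox7c) to -0.52 (Cox5b, edgeR adjusted p = 0.0497). The call of Cox5a ended without control replicate 1 or 4 or obese replicate 2 or 3. That of Cox5b held only without control replicate 2, obese replicate 4, or treated replicate 1 or 3.

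In ATP synthase, Atp5c1, the gamma subunit that turns inside the head (chr2:10056016-10080510, minus strand), had 228, 239 and 189 CPM in treated obese hearts, 186, 129, 179 and 231 CPM in obese hearts and 413, 287, 363 and 482 CPM in control-diet hearts. The groups did not overlap, and it fell 2.13-fold (edgeR log2 fold change -1.09 with an SE of 0.19, adjusted p = 0.0014). Atp5g2, the least abundant gene for subunit c of the rotor ring (chr15:102662864-102672352, minus strand), had 25.3, 38.5 and 26.6 CPM in treated obese hearts, 20.3, 17.9, 24.3 and 26.5 CPM in obese hearts and 53.6, 31.4, 56.7 and 67.2 CPM in control-diet hearts. Every obese value was below the lowest control-diet value, that of replicate 2, and the fall was 2.35-fold (edgeR log2 fold change -1.23 with an SE of 0.22, adjusted p = 0.00182). Atp5f1, subunit b of the peripheral stalk, had 163, 175 and 140.5 CPM in treated obese hearts, 144, 106, 139 and 181 CPM in obese hearts and 291, 203, 263 and 319.8 CPM in control-diet hearts. It fell 1.89-fold without overlap (edgeR log2 fold change -0.92 with an SE of 0.17, adjusted p = 0.00218). The other stalk genes did not all behave so. Atp5o (the oligomycin sensitivity protein) fell 1.94-fold and Atp5h (subunit d) fell 1.62-fold, both without overlap, whereas Atp5j (coupling factor 6) did not pass.

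The head subunits Atp5a1 and Atp5b fell 1.53-fold and 1.71-fold (edgeR adjusted p = 0.0197 and 0.00437), and Atp5e, the epsilon subunit of the central stalk, fell 1.55-fold. Atp5d, the delta subunit beside it, had 224, 209 and 179 CPM in treated obese hearts, 195, 142, 164 and 205 CPM in obese hearts and 218, 161, 233 and 252 CPM in control-diet hearts. Its groups overlapped, with an interval of -0.60 to 0.02 for the log2 fold change (edgeR adjusted p = 0.172). Atp5j had 61.4, 56.7 and 44.0 CPM in treated obese hearts, 59.5, 52.6, 49.2 and 62.7 CPM in obese hearts and 72.3, 52.6, 70.4 and 82.5 CPM in control-diet hearts. Obese replicates 1 and 4 lay in the control range, and the interval was -0.60 to -0.02 (edgeR adjusted p = 0.121), and its locus overlaps Gabpa on the other strand. The normal limits of this interval leave out 0, but the unadjusted edgeR p of Atp5j was 0.05 or over. Atp5k, subunit e of the dimer interface, had 4.44, 4.64 and 3.01 CPM in treated obese hearts, 5.26, 3.87, 3.50 and 4.97 CPM in obese hearts and 5.68, 3.81, 6.45 and 7.30 CPM in control-diet hearts. It too overlapped, with an interval of -0.83 to 0.02 (edgeR adjusted p = 0.175). Without control replicate 2 these 3 genes passed, with edgeR adjusted p of 0.0284 for Atp5d, 0.0181 for Atp5j and 0.0350 for Atp5k. Of the other membrane-sector genes, Atp5j2 (subunit f), Atp5l (subunit g) and Atp5mpl (a small proteolipid) fell by log2 fold changes of -0.98, -0.70 and -0.60, and Atp5s by -0.49. The calls of Atp5a1, Atp5e, Atp5mpl and Atp5s each ended without control replicate 4 and without obese replicate 2. Those of Atp5a1 and Atp5e ended also without control replicate 1 or obese replicate 3, that of Atp5e without control replicate 3, and that of Atp5s without obese replicate 1 or 3.

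The remaining subunit c genes were compared with Atp5g2 above. Atp5g1 had 321, 300.4 and 250.4 CPM in treated obese hearts, 303, 217, 232 and 341 CPM in obese hearts and 409, 299, 367 and 464 CPM in control-diet hearts. Control replicate 2 lay inside the obese range, and the fall of 1.41-fold passed narrowly (edgeR adjusted p = 0.0452). Atp5g3 had 369.7, 335 and 263 CPM in treated obese hearts, 327, 235, 264 and 369 CPM in obese hearts and 496, 348, 471 and 516 CPM in control-diet hearts. It fell 1.53-fold with overlap of obese replicate 4 and control replicate 2 (edgeR adjusted p = 0.0182). The call of Atp5g1 held in 4 of 11 fits that left out 1 library (control replicate 2, obese replicate 4, treated replicate 1 or 3), with edgeR adjusted p up to 0.127 without control replicate 4. That of Atp5g3 held in 9, ending without control replicate 4 (0.0528) and without obese replicate 2.

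**Figure D3:**
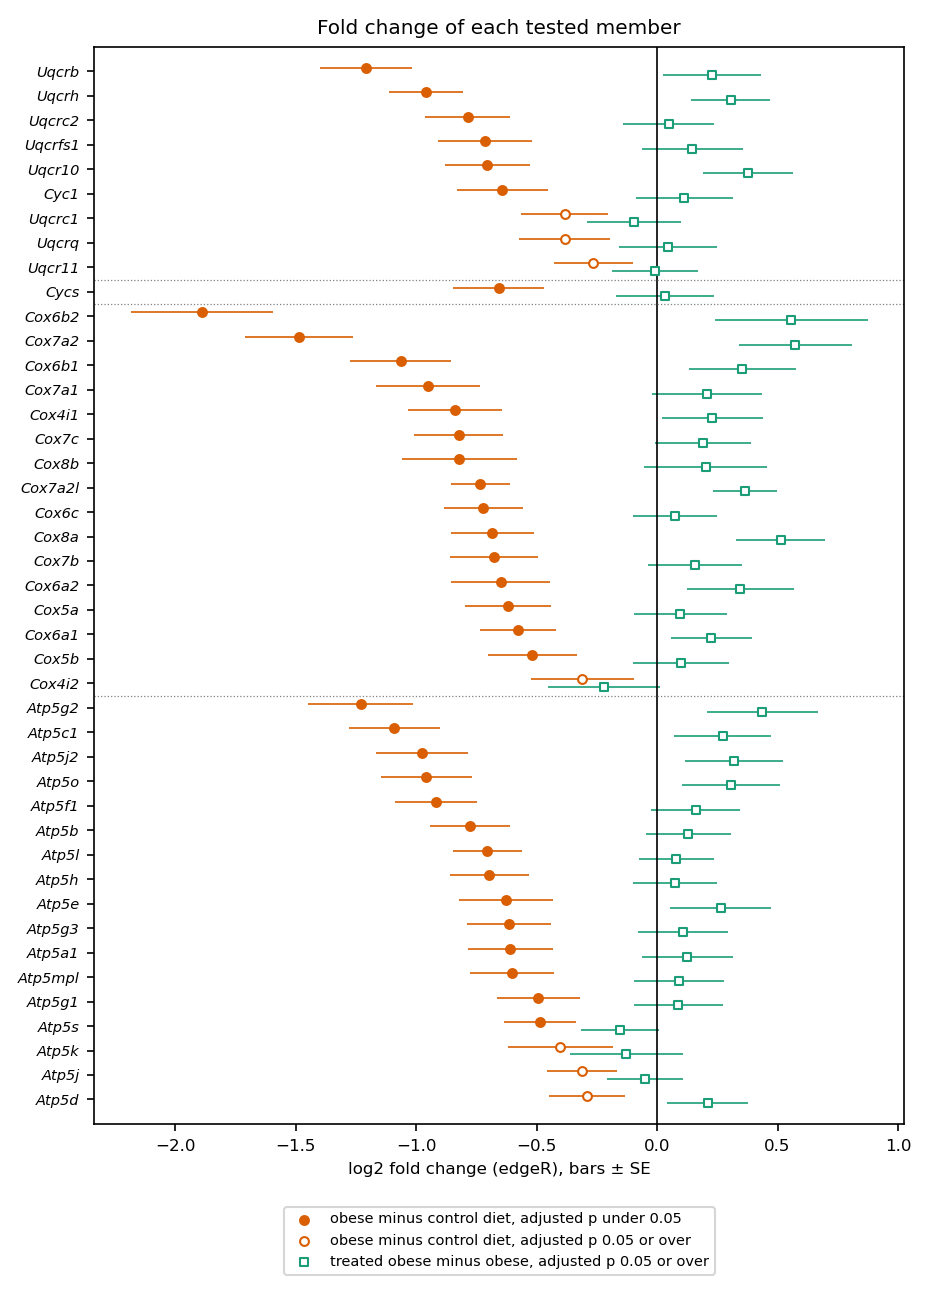
Log2 fold change of each tested member with its SE, for obese minus control diet (circles, filled where the edgeR adjusted p is under 0.05) and treated obese minus obese (open squares). With TMM scaling all 43 circles lie left of 0, 36 of them filled, while the squares spread on both sides of 0 with 37 to its right.

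The members varied together from library to library. Relative to the control-diet mean, the median over the 43 members was -0.41, -0.41 and -0.81 (log2) in treated replicates 1 to 3, -0.60, -0.97, -0.81 and -0.38 in obese replicates 1 to 4, and 0.09, -0.40, 0.01 and 0.33 in control replicates 1 to 4. In control replicate 2 all 43 members were below the control mean, and in control replicate 4 all but 1 were above it. Control replicate 2 also had the highest intronic share on that diet, 0.590%, and control replicate 4 the lowest, 0.286%. Among obese libraries replicate 4 had the highest members and the lowest intronic share, 0.663%, but the lowest members were in replicate 2 at 0.706% and not in replicate 3, which had the highest share at 0.811%. Over the fits that each left out 1 library, the count of members called lower ran from 24 of 43 without control replicate 4 to 40 without control replicate 2. Calls over all genes moved the same way, with 2800 of 23668 lower without control replicate 4 and 4401 of 23579 without control replicate 2. In all 11 fits 24 members were called, and how many of all genes kept their call was not counted. These 24 were 5 of complex III, 11 of complex IV and 8 of ATP synthase. Without the 3 libraries high in atrial markers, which leaves 1 treated library, the members' median log2 fold change of obese over control-diet hearts was -0.65. That of all genes was 0.11.

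Summed over all members, the nuclear subunits took 0.880 to 1.04% of counts in treated obese hearts, 0.756 to 0.996% in obese hearts and 0.933 to 1.13% in control-diet hearts. With the mitochondrial chromosome left out of the total, the share was 1.07 to 1.31% in treated obese, 0.980 to 1.32% in obese and 1.30 to 1.67% in control-diet hearts. Obese and control-diet libraries overlapped on both scales, by obese replicate 4 and control replicate 2. Among cell markers, 4 of 8 ventricular cardiomyocyte genes were called lower in obese hearts (median log2 fold change -0.43). For these and the markers that follow, the shares over all genes were 15.7% called lower and 14.4% called higher. Of the 5 endothelial markers 2 were lower, of the 6 adipocyte markers 5 were higher, at sums of 0.725 to 9.36 CPM in treated obese, 0.497 to 7.69 CPM in obese and 0.0991 to 0.281 CPM in control-diet hearts, and of 5 fibroblast and 5 macrophage markers none was called. Of the 6 atrial markers none was called, of 5 erythroid markers 1 was higher, of 2 tested germ cell markers 1 was higher, and of 4 tested skeletal muscle and 2 tested brown adipocyte markers 1 each was lower. The part of these markers in the members' values was not tested. Across the 43 members, genes being no independent replicates, Spearman's rho of the log2 fold change was 0.18 with transcript GC content, 0.13 with transcript length and -0.18 with level per kilobase.

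**Figure D4:**
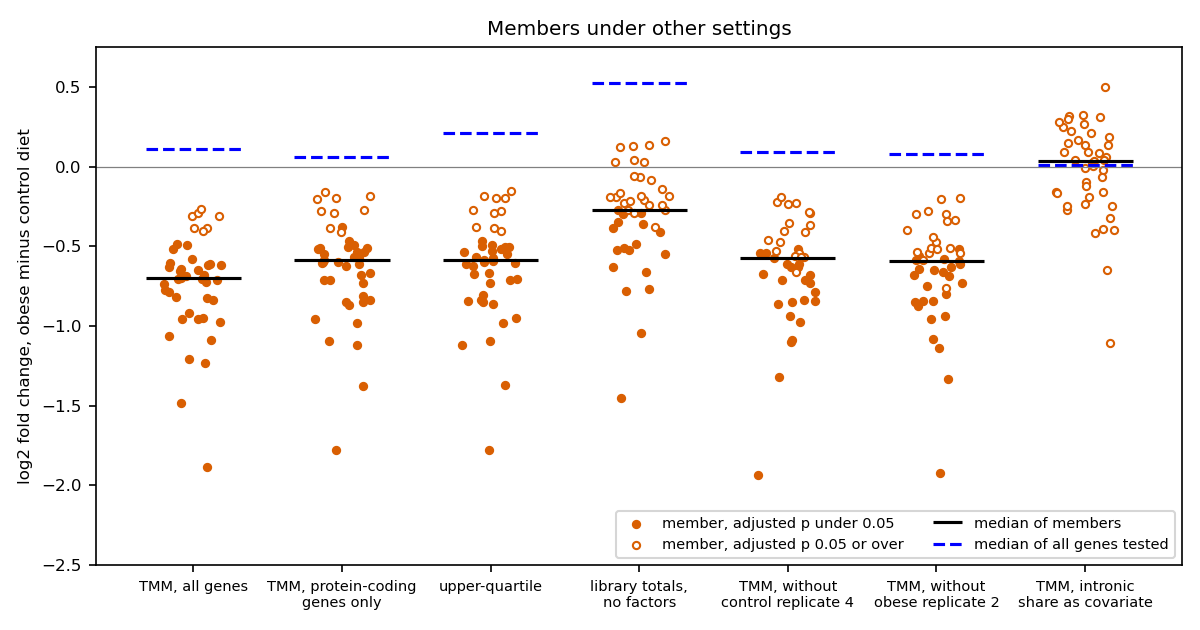
Log2 fold change of the 43 members in obese over control-diet hearts under 7 settings, with filled points for an edgeR adjusted p under 0.05, a black bar at the members' median and a dashed blue bar at the median of all genes tested. The members' median stands below that of all genes under the 6 settings without a covariate, and near it, at 0.03 against 0.01, with the intronic share as covariate.

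Ratios between isoform genes do not depend on library scaling. The 7 pairs and 3 comparisons gave 21 tests by 2-sided exact permutation, and the smallest p that these groups allow is 0.0286. After Benjamini-Hochberg adjustment a single ratio at that minimum stands at 0.6, so a single ratio could not pass in this design. More than 12 of 21 would have to reach that minimum for an adjusted p under 0.05. The smallest adjusted p was 0.24. The log2 ratio of Cox7a1 to Cox7a2 was 0.55 ± 0.28 in obese and -0.01 ± 0.14 in control-diet hearts (SD, n = 4 each), a difference of 0.56 (exact p = 0.0571, adjusted 0.24). That of Atp5g2 to Atp5g3 was -3.74 ± 0.24 in obese and -3.17 ± 0.23 in control-diet hearts (SD, n = 4 each; exact p = 0.0571, adjusted 0.24). Between obese and control-diet hearts the ratio of Cox6a2 to Cox6a1 differed least, at 6.01 ± 0.23 in obese and 6.07 ± 0.13 in control-diet hearts (SD, n = 4 each; exact p = 0.686, adjusted 0.80). The other pairs differed, obese minus control diet, by -0.77 for Cox6b2 to Cox6b1 (exact p = 0.0571), 0.12 for Atp5g1 to Atp5g3 (exact p = 0.0571), 0.55 for Cox4i2 to Cox4i1 (exact p = 0.0857) and -0.14 for Cox8b to Cox8a (exact p = 0.371). The ratio of Cox8b to Cox8a was 1.15 ± 0.42 in treated obese (SD, n = 3) and 1.61 ± 0.08 in control-diet hearts (SD, n = 4; exact p = 0.0571, adjusted 0.24).

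Per length, the muscle forms held most of the level. Cox6a2 made up 98.6% ± 0.213 of Cox6a1 and Cox6a2 together in treated obese hearts (SD, n = 3), 98.5% ± 0.219 in obese hearts and 98.6% ± 0.129 in control-diet hearts (SD, n = 4 each). Cox7a1 made up 66.2% ± 5.01 of its pair in treated obese, 72.0% ± 3.97 in obese and 63.6% ± 2.23 in control-diet hearts, with the same n. For Cox8b the share was 79.0% ± 4.70 in treated obese, 82.5% ± 2.59 in obese and 84.0% ± 0.792 in control-diet hearts. Of subunit 4, the Cox4i1 gene held on average 95.8% in treated obese, 94.3% in obese and 96.0% in control-diet hearts. Of subunit c, Atp5g2 held 8.06% in treated obese, 6.53% in obese and 9.60% in control-diet hearts, and Atp5g3 held 65.6% in treated obese, 66.5% in obese and 65.8% in control-diet hearts, with the rest from Atp5g1.

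**Figure D5:**
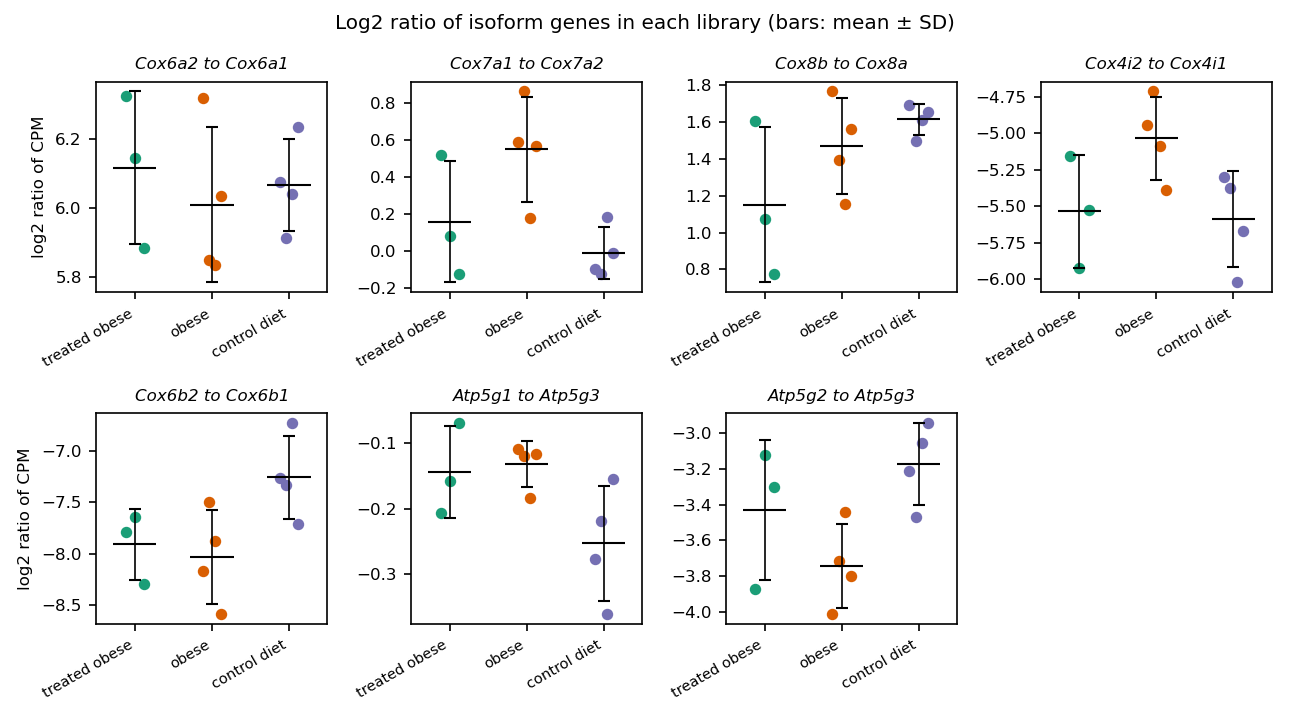
Log2 ratio of the CPM of 7 isoform pairs in each library, in treated obese (3), obese (4) and control-diet (4) hearts, with the mean and SD as bars. Ratios of Cox7a1 to Cox7a2 average 0.16 in treated obese, 0.55 in obese and -0.01 in control-diet hearts, and the libraries of the groups overlap.

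Other genes of the same machinery, taken from lists chosen with earlier results of these data known, were lower as well in obese hearts, against the 15.7% of all genes called lower. They were read with TMM scaling only. All 6 mitochondrially encoded subunits of complexes III, IV and V fell (median log2 fold change -0.75). Among them mt-Atp8, a membrane subunit of ATP synthase, had 1755, 2015 and 1719.6 CPM in treated obese hearts, 1924, 1863, 2008 and 2214 CPM in obese hearts and 4402, 2726, 3545 and 5041 CPM in control-diet hearts, without overlap of obese and control diet (edgeR log2 fold change -0.97 with an SE of 0.18, adjusted p = 0.00194). The other named one, mt-Co2, the subunit of complex IV that takes electrons from cytochrome c, fell 1.82-fold (edgeR adjusted p = 0.00306). All 4 complex II subunits (median -0.80) and 31 of 36 complex I subunits (median -0.73) fell, among them Sdhb (-0.89), Sdhc (-0.84), Ndufa7 (-1.20) and Ndufa12 (-0.88). Ndufa4 and Ndufa4l2, linked with complex IV but outside the naming rule, stood at -0.53 and -0.56, and Usmg5, an ATP synthase dimer subunit, at -1.13, and all 3 passed.

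Assembly factors were lower in part. Of 24 tested for complex IV, 11 fell (median -0.47), with Cox20, a chaperone of the mt-Co2 product, at -1.28 and Surf1, which acts in early complex IV assembly, at -0.54. Of 6 for complex III, 2 fell, Uqcc2 (-0.58) and Uqcc3 (-0.57), with a list median of -0.13. Of 6 for ATP synthase, 4 fell (median -0.66). Atpif1, the inhibitor protein of ATP synthase, had 36.0, 35.2 and 25.7 CPM in treated obese hearts, 33.1, 24.5, 23.6 and 30.8 CPM in obese hearts and 70.5, 48.5, 55.4 and 62.1 CPM in control-diet hearts. Its groups did not overlap, and it fell 2.11-fold (edgeR log2 fold change -1.08 with an SE of 0.15, adjusted p = 0.000522). Tmem70, needed to build the rotor ring, fell 1.92-fold. Of 14 transcription regulators of respiratory genes 6 fell, namely Tfb2m, Tfam, Gabpa, Yy1, Esrrb and Esrrg, and none was called higher (median -0.22). Tfb2m, a factor of mitochondrial transcription, had 26.6, 28.8 and 25.1 CPM in treated obese hearts, 23.4, 19.3, 23.1 and 31.2 CPM in obese hearts and 52.6, 43.2, 47.3 and 55.1 CPM in control-diet hearts, and fell 2.04-fold without overlap (edgeR adjusted p = 0.000368). Gabpa, the DNA-binding GABP subunit, fell 1.42-fold (edgeR adjusted p = 0.0011). The coactivator gene Ppargc1a stood at 0.25 (SE 0.29, edgeR adjusted p = 0.542), Nrf1 at 0.14 and Esrra at -0.11, and none of these 3 passed. Tfam, Yy1, Esrrb, Esrrg, Ppargc1a, Nrf1 and Esrra were named after their values were seen.

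The comparison of treated obese with obese hearts sets the senolytic cocktail against PEG400 alone under the same diet. Atrial markers were high in treated replicates 2 and 3 and in obese replicate 3, so atrial content was not balanced between these groups. Its part was not tested. No member was called, 0 of 43 by edgeR, and 0% of all genes were called lower and 0% higher. DESeq2 called 80 genes lower and 51 higher, and limma voom none, and no member was among them. The members' median log2 fold change was 0.16, against -0.01 over all genes, with 37 members above 0 and 6 below, where 50.8% of all genes were below 0. The median moved with single libraries. It was 0.05 without obese replicate 2 (13 members below 0), 0.10 without obese replicate 3, 0.09 without treated replicate 2, and 0.28 without obese replicate 4 or treated replicate 3. Without obese replicate 3 and treated replicates 2 and 3 together, which leaves 1 treated library, the members' median was 0.22. Without obese replicate 3, edgeR called 9 genes lower and 15 higher, none of them a member. At an unadjusted p under 0.05 stood 3 members (6.98%), a smaller share than the 10.2% of all genes. These were Cox8a, Cox7a2l and Cox7a2, and in the same 3, by the values listed with the diet comparison, all 3 treated libraries lay above all 4 obese ones, which was so for 4.68% of all genes. No member lay wholly below the obese libraries, against 5.45% of all genes. Cox8a stood at 0.51 with an approximate 95% interval of 0.15 to 0.88 (SE 0.18, edgeR adjusted p = 0.413). Cox7a2l stood at 0.36 (interval 0.11 to 0.62, edgeR adjusted p = 0.417) and Cox7a2 at 0.57 (interval 0.11 to 1.03, edgeR adjusted p = 0.449). Uqcr10 came next at 0.38 (interval 0.01 to 0.75, edgeR adjusted p = 0.516), with overlapping groups and an unadjusted edgeR p of 0.05 or over.

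By complex, the median log2 fold change of treated over obese hearts was 0.11 in complex III (9 members), 0.22 in complex IV (16 members) and 0.13 in ATP synthase (17 members), and Cycs stood at 0.03. The lowest value was that of Cox4i2, -0.22, and the 5 others below 0 were Atp5s, Atp5k, Uqcrc1, Atp5j and Uqcr11. The mitochondrially encoded subunits stood at a median of -0.15, with all 6 below 0 and none called. Treated replicate 3 stood at a median of -0.81 relative to the control-diet mean where treated replicates 1 and 2 were at -0.41, and it had the lowest mitochondrial share of all libraries, 17.8%. With the intronic share as a covariate the members' median in this comparison was -0.12, with 31 of 43 below 0 and none called. The intronic share of 0.509 to 0.671% in treated obese hearts overlapped with the 0.663 to 0.811% of obese hearts in treated replicate 3 alone.

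Treated obese and control-diet hearts were compared to see how far the treated hearts stood from controls. This comparison shares its libraries with both others. With TMM scaling all 43 members had log2 fold changes below 0, and with library totals alone 31 of 43. On TMM scaling they had a median of -0.57 against 0.05 over all genes, and 17 fell past the test, where 8.39% of all genes were called lower and 7.43% higher. They were 3 of 9 complex III members (Uqcrb, Uqcrh and Uqcrc2), 5 of 16 complex IV members (Cox6b2, Cox7a2, Cox6c, Cox7a1 and Cox7c) and 9 of 17 ATP synthase members. In 15 members all treated libraries lay below all control-diet ones, against 14.1% of all genes. Uqcrb stood at -0.98 (edgeR adjusted p = 0.01), Cox6b2 at -1.33 (0.0158), Cox7a2 at -0.91 (0.0255) and Atp5c1 at -0.82 (0.0199). Cox8a stood at -0.17 (edgeR adjusted p = 0.559) and Cox7a2l at -0.37 (0.0755), and neither passed. The count of 17 moved with single libraries: it was 0 without treated replicate 3, 2 without control replicate 4, 4 without control replicate 1, 10 without control replicate 3 or treated replicate 2, 11 without treated replicate 1, and 32 without control replicate 2. Calls over all genes moved as well, with 1994 of 23779 lower in the main fit and 552 of 24515 without treated replicate 3. They were 1033 of 23668 without control replicate 4, 1036 of 23681 without control replicate 1 and 2722 of 23579 without control replicate 2. By DESeq2 27 members were called lower, where it called 2818 genes lower. With the intronic share as a covariate the count of members was 0, 31 of 43 members were below 0, and 301 genes were called lower. All 6 mitochondrially encoded subunits fell in this comparison (median -0.93), 14 of 36 complex I subunits fell, and 3 of 14 regulators did.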

How the data were processed

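Heart RNA of 11 libraries in 3 groups was sequenced, and the authors deposited raw counts per gene, whole numbers that the file holds without normalization. Per the submitters' processing notes, cutadapt, HISAT2 and StringTie and the build GRCm38 were used; the sources used here give no version, annotation or strand setting. Total RNA was extracted with TRIzol, per the labels' protocols. Samples were grouped by the group names in the labels, and every column of the table was used. Symbols, classes and coordinates came from GENCODE M21, which named 55141 of 55487 identifiers, with 346 left unnamed.

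The test was edgeR 4.0.16 (R 4.3.3), a robust quasi-likelihood fit with TMM scaling on all 11 libraries in 1 model, which shares 1 estimate of the spread. It covered the 23779 genes that passed filterByExpr (minimum count 10, minimum total 15), with Benjamini-Hochberg adjustment over all of them in each comparison and a threshold of 0.05. SE is the absolute log2 fold change over the square root of F, and intervals are the fold change with normal 95% limits from it. These limits are narrower than the edgeR test implies. An interval can therefore leave out 0 where the unadjusted edgeR p is 0.05 or over. The biological coefficient of variation was 0.259. CPM uses TMM-scaled library sizes, and log2 CPM a prior count of 1. Isoform ratios were tested by exact permutation in scipy 1.17.1. The fit was first tested on simulated data.

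The members and the lists were chosen with earlier results of these data known. Per-library values are given for the 3 members with the smallest p in complex III with cytochrome c, complex IV and ATP synthase, for isoform pairs, for up to 6 members that were not called, smallest p first, and for the 4 members with the smallest p in treated against obese hearts, all at a mean of at least 1 CPM, or tested if in a pair. From the other lists the 2 genes with the smallest p were named. Alternatives changed the scaling, the filter, the genes and libraries fitted, the test (DESeq2 1.42.0, limma 3.58.1 voom), covariates and reads of like-named pseudogenes, of which the 8 with member symbols held 0.00874% of the members' total. Libraries within a group differed well beyond counting noise, so none was counted as a duplicate. Library totals of 52736860 to 103293081 counts make counting error small beside the spread between libraries for all but the lowest members. Protein sequences were not used here.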

Additional observations from a re-analysis of the deposited data

Results flagged for a closer look

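In 100 groups of 4 libraries checked for a value far from the others, 2 stood apart, and chance alone marks about 1 in 20 groups. Cox8a had 26.6 CPM in obese replicate 4, where the other obese libraries had 21.3 to 22.1 CPM. The log2 ratio of Atp5g1 to Atp5g3 was -0.18 in obese replicate 3, where the other obese libraries had -0.12 to -0.11.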

How the results depend on the processing

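In obese against control-diet hearts, 36 of 43 members were called lower, and 33 to 38 under the other scalings computed from the genes (RLE, upper quartile, TMM without mitochondrial genes), other filters, protein-coding genes only, the 2 groups alone, DESeq2, limma voom, added pseudogene reads and the replicate block. Over all genes these settings called from 2869 of 15623 lower (protein-coding genes only) to 4480 of 23779 (DESeq2), and 3390 of 41491 with no filter. The count of members was 0 with the intronic share as covariate, 18 with library totals and no scaling factors, and 23 with totals without mitochondrial genes, both chosen after the data were seen. In that order 86, 960 and 1609 genes were called lower, and 35, 9061 and 6707 higher. Leaving out 1 library gave 24 to 40, where 2800 to 4401 genes were called lower. In treated obese against control-diet hearts, where 17 were lower, the count was 27 with DESeq2, 0 with the intronic share, 0 without obese replicate 3 and treated replicates 2 and 3, which leaves 1 treated library assumed to vary like the other groups, and 2 and 10 under the totals without and with removal of mitochondrial genes. Over all genes DESeq2 called 2818 lower, the fit with the intronic share 301, library totals 389 and totals without mitochondrial genes 726. Library totals also gave 1 higher member, Atp5d, where 6911 genes were called higher. Leaving out 1 library gave 0 to 32 members lower, where 552 to 2722 genes were called lower. The cause of these shifts was not tested. Upper-quartile scaling put the median of all genes at 0.21, where TMM put it at 0.11.

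Log2 fold changes were followed for 26 members in obese against control-diet hearts and for the 4 with the smallest p in treated against obese hearts, and for none in treated against control-diet hearts. Of these values 702 kept direction and side of the threshold, 47 lost it, 7 gained it and 24, all for obese against control diet, reversed. With the intronic share as covariate the reversed values were 0.25 (Atp5d), 0.14 (Atp5g1), 0.31 (Atp5j), 0.50 (Atp5k), 0.0014 (Cox4i1), 0.21 (Cox4i2), 0.0919 (Cox6a1), 0.32 (Cox6a2), 0.0866 (Cox7a1), 0.17 (Cox8a), 0.28 (Cox8b), 0.0572 (Uqcr10), 0.30 (Uqcr11), 0.0387 (Uqcrc1) and 0.32 (Uqcrq). With library totals they were 0.14 (Atp5d), 0.12 (Atp5j), 0.0314 (Atp5k), 0.13 (Cox4i2), 0.16 (Uqcr11), 0.0307 (Uqcrc1) and 0.0434 (Uqcrq), and with totals without mitochondrial genes 0.00057 (Atp5d) and 0.025 (Uqcr11). None of these passed the test, and the cause was not tested.

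Of the isoform ratio values 261 kept their direction and 12 reversed. With 1 CPM added to each gene, the difference for Cox6b2 to Cox6b1 was 0.13 in obese against control-diet and -0.17 in treated against obese hearts. The difference of medians for Cox4i2 to Cox4i1 in treated against control-diet hearts was -0.0085. Leaving out 1 library gave -0.0494 to 0.0194 for Atp5g1 to Atp5g3 and -0.0653 to 0.31 for Cox6b2 to Cox6b1 in treated against obese hearts. In treated against control-diet hearts it gave -0.14 to 0.25 for Cox4i2 to Cox4i1, -0.0514 to 0.17 for Cox6a2 to Cox6a1 and -0.0087 to 0.31 for Cox7a1 to Cox7a2, and in obese against control-diet hearts -0.16 to 0.0018 for Cox6a2 to Cox6a1.

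With the replicate number as a block, 38 members were called lower in obese against control-diet, 0 in treated against obese and 12 in treated against control-diet hearts, and the members' median in treated against obese hearts was 0.30. Of all 23779 genes, this fit called 3797, 0 and 1426 lower in the same order of comparisons. The main fit called 3737, 0 and 1994 lower. Libraries with the same number did not deviate together in all pairs, with correlations of -0.02 to 0.12 between obese and control-diet, 0.07 to 0.40 between treated and obese and -0.23 to 0.06 between treated and control-diet libraries. Treated and obese libraries with different numbers had -0.41 to 0.19, below the 0.40 of replicates 1 and the 0.34 of replicates 3. The numbers were not taken as pairs in the main fit, and for treated against obese hearts these values do not settle whether they are pairs.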
